A study of Mus musculus with 6 samples.

Results

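The genes described here are 10 members of the bone morphogenetic protein (BMP) pathway and its targets, namely Bmp4, Bmpr1a, Bambi, Smad6, Id1, Id2, Id3, Id4, Msx1 and Msx2. They were taken by symbol: every probe set annotated to exactly 1 of these names was used, which gave 21 probe sets for 10 of the 18193 genes measured. Total RNA was measured on Affymetrix arrays from the mouse embryonic stem cell line E14Tg2a, 96 h after transfection. Cells received Ncl siRNA #2, Ncl siRNA #1 or a control siRNA duplex against firefly luciferase, and each group held 2 arrays. Both Ncl siRNAs target nucleolin, an abundant nucleolar protein. All groups share the line and the transfection, and no label names the culture medium or states whether a group's arrays came from separate cultures. The p-values therefore measure only the spread between these arrays.

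BMP ligands bind a receptor complex of type I and type II kinases, which phosphorylates Smad1, Smad5 and Smad9. These enter the nucleus with Smad4 and switch on target genes. The Id genes are direct targets in many cells and encode helix-loop-helix proteins without a DNA-binding region, which hold E proteins such as Tcf3 in inactive pairs. Smad6 and Bambi are targets that feed back as inhibitors. In mouse embryonic stem cells, BMP4 acting through Id proteins is known to help hold off neural differentiation, and BMP signalling also takes part in trophoblast differentiation.

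The members are spread over the genome. In GRCm38.p6, Bmp4 and Bmpr1a lie on chromosome 14, Id4 and Msx2 on chromosome 13, Id1 on 2, Id3 on 4, Msx1 on 5, Smad6 on 9, Id2 on 12 and Bambi on 18. RefSeq promoter sequences of that build were matched for 8 members, all but Id1 and Bambi. The 250 bases before the start used for each promoter are shown for the 5 members with the largest differences, since the results turn on these genes. That start need not be the outer end of the annotated gene. The Smad6 window runs partly inside its gene, and the Bmpr1a window, counted below, lies wholly inside. Capitals mark GGCGCC, a GC-rich element that Smad1 and Smad5 can bind, and CAGAC, the core of the Smad binding element, on either strand; Msx2, Smad6 and Bmp4 held neither in this window.
Msx2, chr13:53472781-53473030, - strand: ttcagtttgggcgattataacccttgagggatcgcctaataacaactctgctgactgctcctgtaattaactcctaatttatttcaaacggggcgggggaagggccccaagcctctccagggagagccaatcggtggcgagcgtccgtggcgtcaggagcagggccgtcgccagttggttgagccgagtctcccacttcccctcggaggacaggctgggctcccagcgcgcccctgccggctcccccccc
Smad6, chr9:64022060-64022309, - strand: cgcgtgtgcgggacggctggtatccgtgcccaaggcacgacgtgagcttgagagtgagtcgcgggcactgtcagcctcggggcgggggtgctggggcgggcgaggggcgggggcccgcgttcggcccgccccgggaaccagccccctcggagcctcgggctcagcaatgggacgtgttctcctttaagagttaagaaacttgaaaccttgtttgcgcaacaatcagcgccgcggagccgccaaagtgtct
Id2, chr12:25096093-25096342, - strand: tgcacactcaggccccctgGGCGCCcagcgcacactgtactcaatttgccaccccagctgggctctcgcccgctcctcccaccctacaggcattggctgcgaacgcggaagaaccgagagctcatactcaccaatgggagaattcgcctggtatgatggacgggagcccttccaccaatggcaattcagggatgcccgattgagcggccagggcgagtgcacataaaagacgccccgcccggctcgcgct
Id3, chr4:136143572-136143821, + strand: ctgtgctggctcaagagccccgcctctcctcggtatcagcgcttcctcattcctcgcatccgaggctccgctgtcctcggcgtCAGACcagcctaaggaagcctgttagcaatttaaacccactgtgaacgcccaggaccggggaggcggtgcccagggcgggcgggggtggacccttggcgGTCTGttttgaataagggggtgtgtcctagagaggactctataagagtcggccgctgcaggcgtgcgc
Bmp4, chr14:46390670-46390919, - strand: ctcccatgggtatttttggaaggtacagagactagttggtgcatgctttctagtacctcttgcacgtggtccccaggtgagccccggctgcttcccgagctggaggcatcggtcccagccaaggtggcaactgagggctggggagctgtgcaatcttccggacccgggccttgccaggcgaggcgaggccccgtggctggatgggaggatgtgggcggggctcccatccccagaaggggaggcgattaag
The windows of Id2, Id4 and Bmpr1a held GGCGCC, which was present in 9.59% of 32817 mouse promoter windows of this length. Id3 held CAGAC at 2 places, and it was the 1 member of 8 with that motif, which 42.2% of all windows contained. No match overlapped another in these windows. The median GC content of the 8 windows was 65.0%, against 52.4% over all windows, and the median number of CpG pairs was 19 against 6. These are descriptions of the sequence, and the arrays hold no measure of factor binding.

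The deposited values are log2 signals with array medians from 5.73 to 5.79, close enough to be read as already scaled between arrays, although no label states it. The arrays of one group differed by a median of 0.09 over all probe sets with siRNA #2, 0.16 with siRNA #1 and 0.12 with control siRNA, and over the 21 member probe sets by 0.07 with siRNA #2, 0.15 with siRNA #1 and 0.07 with control siRNA. Ncl, the targeted gene, fell on all 5 of its probe sets, to between 33.6% and 69.0% of control with siRNA #2 on the 4 dimmer ones and to 72.5% on the brightest. With siRNA #1 the 5 probe sets stood between 37.2% and 72.9% of control. All 8 markers of embryonic stem cells read well above the array medians in every group, between 9.48 and 14.82 as group means, and 7 of 8 fell in the mean of both siRNAs. The control arrays also held transcripts of lung. The summed linear signal of 8 lung epithelial markers was 311 to 315 with siRNA #2, 237 to 310 with siRNA #1 and 11113 to 11680 in the control arrays. Scgb1a1, with a control mean of 12.96, weighs most in the control sums. In the mean of both siRNAs 7 of the 8 fell, and Sftpb did not pass, at -0.20 (limma adjusted p = 0.243). On each of the 4 Ncl siRNA arrays, Scgb1a1, Bpifa1 and Cyp2f2 were below the array's lower quartile. All 6 markers of lung mesenchyme and all 6 of heart muscle fell too. Of 6 leukocyte markers 2 rose and 1 fell, and of 6 for extraembryonic endoderm 1 rose and 1 fell. These counts are for the mean of both siRNAs, where 20.3% of all genes rose and 21.7% fell. Signal of 18S ribosomal RNA lay between 13.06 and 13.17 with siRNA #2, between 12.96 and 13.20 with siRNA #1 and between 12.02 and 12.19 in the control arrays. The poly-A controls averaged 7.83 to 7.90 with siRNA #2, 8.004 to 8.249 with siRNA #1 and 7.13 to 7.27 in the control arrays, and the hybridisation controls 10.87 to 10.91 with siRNA #2, 10.97 to 11.01 with siRNA #1 and 11.72 to 11.86 in the control arrays. Both control arrays carry these signs, so group and array quality cannot be told apart in any comparison with control.

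Against control siRNA, most members rose and the ligand fell. In the mean of both Ncl siRNAs, 7 of 10 members rose (Bmpr1a, Smad6, Id1, Id2, Id3, Id4 and Msx2), 1 fell (Bmp4), and Bambi and Msx1 did not pass. Among all genes 20.3% rose and 21.7% fell in this comparison, 42.0% in all. The median difference of the members was 0.47 on the log2 scale, against -0.05 over all genes. With siRNA #2 alone 7 rose and 2 fell, where 17.7% of all genes rose and 21.7% fell, 39.5% in all. With siRNA #1 alone 7 rose and 1 fell, where 20.2% rose and 17.3% fell, 37.4% in all. Both comparisons use the same 2 control arrays. In bulk RNA, a change in the share of cells that make a transcript and a change in RNA per cell cannot be told apart.

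**Figure D1:**
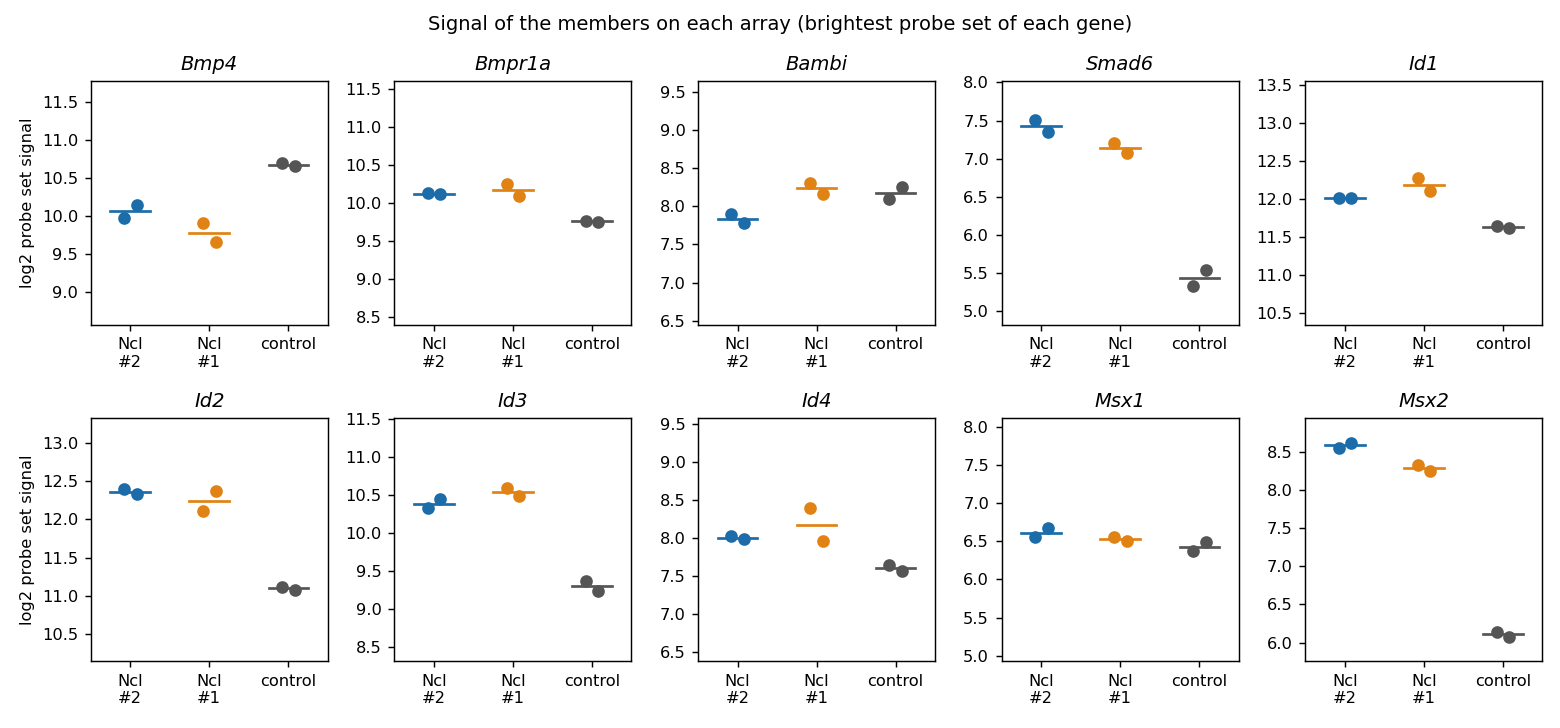
Log2 signal of each member on each array, for the brightest probe set of the gene, with Ncl siRNA #2, Ncl siRNA #1 and control siRNA from left to right; points are arrays, lines are means of 2 arrays, and every panel spans the same number of log2 units. Smad6, Id2, Id3 and Msx2 stand clear of control on all 4 Ncl siRNA arrays, Bmp4 lies below control, and Msx1 and Bambi stay near it.

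Bmp4 encodes a secreted ligand that binds Bmpr1a with a type II receptor. Its probe set read 9.97 and 10.15 with siRNA #2, 9.90 and 9.65 with siRNA #1, and 10.69 and 10.66 with control siRNA. All 4 Ncl siRNA arrays were below both control arrays, and the siRNA #1 arrays were below the siRNA #2 arrays. Bmp4 fell by 0.62 with siRNA #2 (SE 0.08, limma adjusted p = 2.15e-06), to 0.653 of control, and fell by 0.90 with siRNA #1 (SE 0.08, limma adjusted p = 1.15e-08), to 0.537 of control. It was the 1 member lower with each of the siRNAs.

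Bmpr1a encodes a type I receptor of BMP2 and BMP4 and was measured by 6 probe sets. The brightest read 10.12 and 10.12 with siRNA #2, 10.24 and 10.09 with siRNA #1, and 9.76 and 9.75 with control siRNA. On it Bmpr1a rose by 0.37 with siRNA #2 (SE 0.07, limma adjusted p = 2.62e-04) and by 0.41 with siRNA #1 (SE 0.07, limma adjusted p = 8.69e-05), both about a 1.3-fold change. The probe sets did not all do the same. In the test over all 45037 probe sets, 3 of the 6 rose with each siRNA, with mean differences of 0.60, 0.40 and 0.39. Another 3 did not pass, at 0.20, 0.16 and -0.11, and the one at 0.20 lay below the lower quartile on both control arrays and on 3 of 4 Ncl siRNA arrays.

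Bambi encodes a receptor-like membrane protein that lacks the kinase region and dampens signalling. It read 7.90 and 7.78 with siRNA #2, 8.31 and 8.16 with siRNA #1, and 8.09 and 8.26 with control siRNA. The siRNA #2 arrays were the lowest, and the siRNA #1 arrays overlapped control. Bambi fell by 0.34 with siRNA #2 (SE 0.11, limma adjusted p = 0.0188), while the difference with siRNA #1 was 0.06 (95% interval -0.17 to 0.29, limma adjusted p = 0.726). The siRNA #2 call was lost without replicate 2 of control (-0.25) and without replicate 1 (-0.39) or replicate 2 (-0.28) of siRNA #2.

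Smad6 encodes the inhibitory Smad that competes with Smad1 and Smad5 and is itself induced by BMP. It read 7.51 and 7.35 with siRNA #2, 7.20 and 7.07 with siRNA #1, and 5.33 and 5.54 with control siRNA. No Ncl siRNA array came near the control arrays. Smad6 rose 3.98-fold with siRNA #2 (log2 1.99, SE 0.15, limma adjusted p = 5.07e-10) and 3.25-fold with siRNA #1 (log2 1.70, SE 0.15, limma adjusted p = 8.05e-09). The control readings lay below the array medians.

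Of the 4 Id genes, Id2 and Id3 had the larger rises. The brightest Id2 probe set read 12.40 and 12.33 with siRNA #2, 12.12 and 12.37 with siRNA #1, and 11.12 and 11.07 with control siRNA. All 4 Ncl siRNA arrays were higher than control, and the 2 siRNAs overlapped each other. Id2 rose 2.41-fold with siRNA #2 (log2 1.27, SE 0.07, limma adjusted p = 8.3e-13) and 2.22-fold with siRNA #1 (log2 1.15, SE 0.07, limma adjusted p = 5.7e-12). Its other probe sets gave mean differences of 1.16 and 1.83, and all 3 passed with each siRNA. The control readings of the last were 5.66 and 5.29, below the array medians.

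Id3 has 1 probe set, which read 10.32 and 10.44 with siRNA #2, 10.58 and 10.49 with siRNA #1, and 9.37 and 9.24 with control siRNA. It rose 2.11-fold with siRNA #2 (log2 1.08, SE 0.07, limma adjusted p = 1.02e-10) and 2.35-fold with siRNA #1 (log2 1.23, SE 0.07, limma adjusted p = 1.45e-11). As for Id2, the groups were separated from control by far more than the gap between arrays of a group.

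Id1, often used as the readout of BMP signalling, moved less. It read 12.02 and 12.02 with siRNA #2, 12.27 and 12.10 with siRNA #1, and 11.64 and 11.62 with control siRNA. Id1 rose by 0.38 with siRNA #2 (SE 0.06, limma adjusted p = 8.29e-06) and by 0.55 with siRNA #1 (SE 0.06, limma adjusted p = 5.88e-08), or 1.3-fold and 1.47-fold.

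Id4, a family member best known from the nervous system, gave probe sets that disagree. The brightest read 8.02 and 7.98 with siRNA #2, 8.39 and 7.97 with siRNA #1, and 7.65 and 7.57 with control siRNA. On it Id4 rose by 0.39 with siRNA #2 (SE 0.13, limma adjusted p = 0.0179) and by 0.57 with siRNA #1 (SE 0.13, limma adjusted p = 0.00116). The other 2 probe sets did not pass with either siRNA. One differed by -0.23 with siRNA #2 and -0.10 with siRNA #1, and the other by -0.05 and 0.38. With the mean of all 3 probe sets the Id4 call was lost, at 0.04 with siRNA #2 and 0.28 with siRNA #1. The siRNA #2 call was also lost without replicate 2 of control (0.35), without replicate 1 (0.37) or replicate 2 (0.41) of siRNA #2, without a variance trend (limma adjusted p = 0.0808) and at an adjusted p under 0.01. With siRNA #1, the value was 0.35 without replicate 1 of that siRNA and 0.78 without replicate 2, and the call was kept in both.

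Msx1 and Msx2 encode related homeodomain repressors that BMP induces in several embryonic tissues. On the brightest probe sets, Msx2 had the largest change of the 10 members. Its brighter probe set read 8.55 and 8.63 with siRNA #2, 8.33 and 8.25 with siRNA #1, and 6.14 and 6.08 with control siRNA. Msx2 rose 5.57-fold with siRNA #2 (log2 2.48, SE 0.12, limma adjusted p = 2.04e-13) and 4.53-fold with siRNA #1 (log2 2.18, SE 0.12, limma adjusted p = 2.28e-12). The other Msx2 probe set lay below the lower quartile on all 6 arrays, between 3.70 and 4.15, and did not pass. With the mean of both probe sets the rise was 1.32 with siRNA #2 and 1.08 with siRNA #1, and both calls were kept. By that measure Msx2, at 1.199 in the mean of both siRNAs, ranked after Smad6 (1.85) and Id2 (1.40). Msx1 read 6.55 and 6.67 with siRNA #2, 6.55 and 6.50 with siRNA #1, and 6.38 and 6.49 with control siRNA. Its differences, 0.18 with siRNA #2 (95% interval -0.14 to 0.49) and 0.09 with siRNA #1 (95% interval -0.22 to 0.41), did not pass, and those of its other probe set were 0.40 and 0.12.

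**Figure D2:**
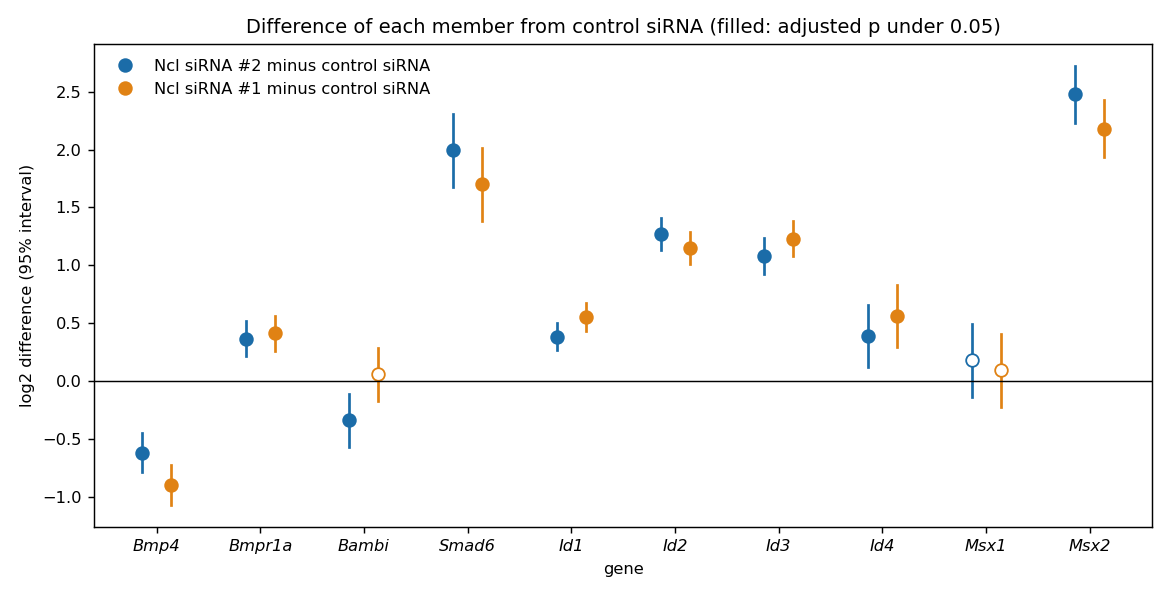
Log2 difference of each member from control siRNA, with 95% intervals from limma, for Ncl siRNA #2 (left of each pair) and Ncl siRNA #1 (right); filled points passed an adjusted p of 0.05 over all genes. Msx2 and Smad6 have the highest differences, between 1.70 and 2.48, and Bmp4 the lowest, at -0.62 and -0.90.

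**Figure D3:**
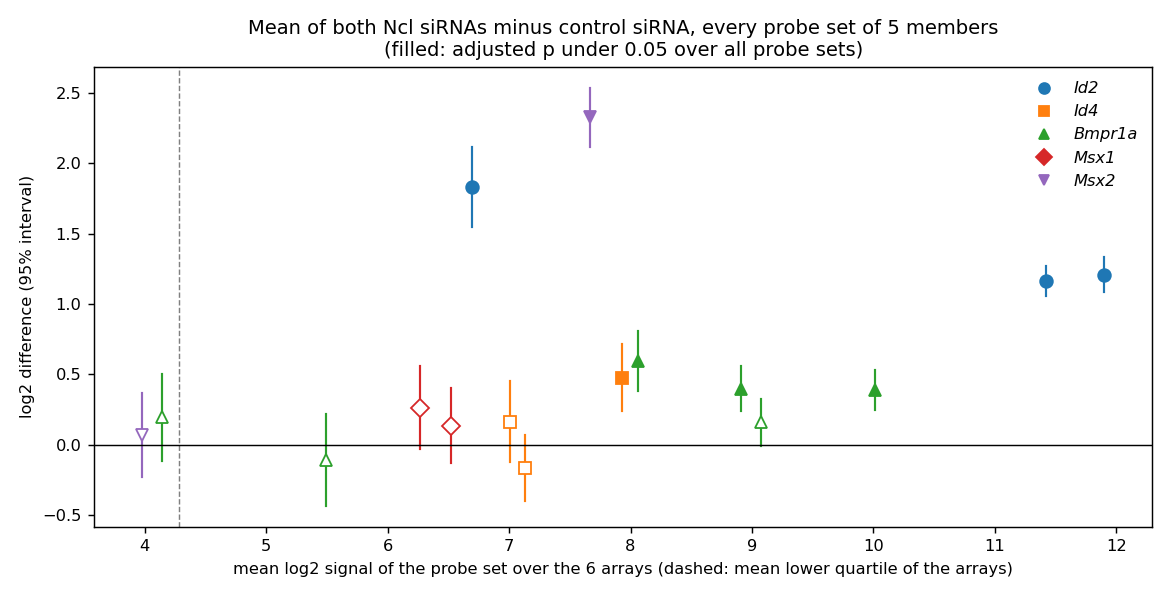
Log2 difference of the mean of both Ncl siRNAs from control siRNA with its 95% interval (vertical axis) against mean log2 signal (horizontal axis), for each of the 16 probe sets of Id2, Id4, Bmpr1a, Msx1 and Msx2; filled points passed over all probe sets. The 3 Id2 probe sets lie between 1.16 and 1.83, whereas Id4, Bmpr1a and Msx2 each have probe sets that passed and probe sets that did not.

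At the level of probe sets, 11 of 21 rose and 1 fell in the mean of both siRNAs, where 15.2% of all probe sets rose and 16.2% fell, 31.5% in all. With siRNA #2 alone 11 rose and 2 fell, where 13.0% of all rose and 15.5% fell, 28.5% in all. With siRNA #1 alone 11 rose and 1 fell, where 14.6% of all rose and 12.5% fell, 27.1% in all. The 9 that did not pass in the mean belong to Bmpr1a, Id4, Msx1, Msx2 and Bambi.

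The 2 Ncl siRNAs were then compared directly, which leaves out the control arrays except in the shared estimate of the spread. Bmp4 was higher with siRNA #2 than with siRNA #1 by 0.28 (95% interval 0.11 to 0.45, limma adjusted p = 0.0366), and Bambi was lower by 0.40 (95% interval of the difference -0.63 to -0.16, limma adjusted p = 0.0302). Among all genes 2.3% were called higher and 6.18% lower with siRNA #2, 8.48% in all. These were 418 higher and 1125 lower genes, and under quantile normalization the split was 566 higher and 594 lower. The other 8 members did not pass. Their differences ran from -0.18 for Id4 (95% interval -0.44 to 0.09) to 0.30 for Msx2 (0.05 to 0.54), with -0.17 for Id1 (-0.29 to -0.05) and 0.12 for Id2 (-0.01 to 0.26). Without replicate 2 of siRNA #1, Id1 (-0.26), Id2 (0.25) and Id4 (-0.39) were called, and without replicate 1 of it Id1 was at -0.09 and not called. Id1 was also called with centred arrays (-0.21) and without dim genes (-0.17), and Msx2 under quantile normalization (0.42). The Bmp4 call was lost without replicate 2 of siRNA #1 (0.16) and without replicate 1 (0.37) or replicate 2 (0.19) of siRNA #2. The Bambi call was lost without replicate 1 of siRNA #1 (-0.32) and without replicate 1 (-0.45) or replicate 2 (-0.34) of siRNA #2. In the test over all probe sets, where 0.959% were called higher and 1.95% lower, 2.91% in all, none of the 21 member probe sets was called by limma. The unadjusted limma p was under 0.05 for 7 of them, from Bmp4, Bambi, Bmpr1a, Id1, Id4 and Msx2. Those of Bmpr1a went opposite ways, at -0.27 and 0.37. The share of all probe sets under this unadjusted threshold was not counted, so the 7 are no result about the members.

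The rest of the pathway was read from 7 lists of 76 genes, of which 70 had a probe set of their own. In the mean of both siRNAs 26 genes rose and 6 fell, which left 38 that did not pass, where 20.3% of all genes rose and 21.7% fell. The median difference was 0.08, against -0.05 over all genes. With siRNA #2 alone 25 rose and 6 fell, where 17.7% of all genes rose and 21.7% fell. With siRNA #1 alone the counts were also 25 and 6, where 20.2% rose and 17.3% fell. Of 12 other ligands 5 rose and 1 fell. The one that fell, Bmp5, at -0.39 (limma adjusted p = 0.0213), read below the lower quartile on all 6 arrays, so its fall is not resolved. It passed with siRNA #1, at -0.49, and did not pass with siRNA #2, at -0.28. Bmp8b, a ligand needed for primordial germ cells, read 7.82 and 7.88 with siRNA #2, 7.19 and 7.13 with siRNA #1, and 6.67 and 6.49 with control siRNA, a mean rise of 0.92 (SE 0.12). Bmp2, the ligand closest in sequence to Bmp4, had a mean difference of 0.61 (SE 0.16), and its rise was called with siRNA #2 only. The values were 0.80 with siRNA #2 (limma adjusted p = 0.00135) and 0.42 with siRNA #1 (limma adjusted p = 0.0843). All 6 arrays read Bmp2 below their medians, and 1 control array read it below the lower quartile.

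Among 10 receptors and co-receptors 5 rose and 2 fell, where 20.3% of all genes rose and 21.7% fell. Tgfbr3, the co-receptor betaglycan, rose 3.8-fold (log2 1.93, SE 0.11) on its brighter probe set, and its other probe set did not pass, at 0.24. Eng, endoglin, rose 2.86-fold (log2 1.52, SE 0.09) on 1 probe set and by 1.82 on the other. Of the signalling kinases, the type I receptor Acvr1 rose by 0.94 (SE 0.10) and the type II receptor Bmpr2 by 0.44 (SE 0.07), while the type II receptor Acvr2b fell by 0.62 (SE 0.11). The type I receptor Bmpr1b fell as well in the mean of both siRNAs, at -0.50 (SE 0.17, limma adjusted p = 0.0187). It passed with siRNA #2, at -0.62 (limma adjusted p = 0.0126), and not with siRNA #1, at -0.38 (limma adjusted p = 0.132). Its readings were below the lower quartile on 2 Ncl siRNA arrays. Endothelial marker genes went both ways beside Eng and Tgfbr3, with 2 of 6 that rose and 3 that fell. The summed linear signal of those markers was 498 to 536 with siRNA #2, 542 to 650 with siRNA #1 and 399 to 465 with control siRNA, Emcn lay below the lower quartile on all 6 arrays, and the part of endothelial transcripts in these results was not tested.

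Of 9 transducers and nuclear partners 3 rose and 2 fell, where 20.3% of all genes rose and 21.7% fell. Smad5 rose by 0.79 (SE 0.10) and Smad4, the shared partner, by 0.43 (SE 0.05) on its brightest probe set. Of the 3 Smad4 probe sets 2 were called higher, and the lowest difference was -0.09. Smad1 differed by 0.04 (limma adjusted p = 0.718) and Smad9 by -0.03 (limma adjusted p = 0.907). Of 6 intracellular inhibitors 4 rose and none fell. Pmepa1, a membrane protein, rose 2.81-fold (log2 1.49, SE 0.07). Smurf1, a ubiquitin ligase for Smad1 and Smad5, rose by 0.67 (SE 0.10), and Smad7, the inhibitory Smad nearest to Smad6, by 0.56 (SE 0.06).

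Of 16 secreted antagonists and modulators 4 rose and none fell, a share of rises near the 20.3% of all genes. Bmp1, an astacin protease that cleaves chordin and procollagen and is no BMP ligand, rose 3.08-fold (log2 1.62, SE 0.12), with 2 of 3 probe sets called. Twsg1, which binds BMP together with chordin, rose 2.31-fold (log2 1.21, SE 0.07), with 3 of 4 probe sets called. Nog, which encodes the antagonist noggin, read between 3.67 and 4.48, below the lower quartile on 5 of 6 arrays, and did not pass.

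Of 11 other BMP target genes 4 rose in the mean of both siRNAs, 7 did not pass and none fell. Among all genes 20.3% rose and 21.7% fell in that comparison. With siRNA #2 alone 4 rose and none fell, where 17.7% of all genes rose and 21.7% fell. With siRNA #1 alone 2 rose, near the 20.2% of all genes, and 1 fell, where 17.3% of all genes fell. The one that fell was Kdr, a receptor of vascular endothelial growth factor, at -0.44 (SE 0.16, limma adjusted p = 0.0410), and Gata2 and Hand1 did not pass with siRNA #1, at 0.31 and 0.08. Dusp9, a phosphatase of ERK that BMP induces in stem cells, read 10.05 and 9.96 with siRNA #2, 9.96 and 9.84 with siRNA #1, and 8.50 and 8.42 with control siRNA. It rose 2.82-fold (log2 1.49, SE 0.07), and all 3 of its probe sets were called. Tfap2a, a transcription factor of surface ectoderm and trophoblast, rose by 0.80 (SE 0.13). Among 6 measured partners of Id proteins 1 rose and 1 fell, near the shares of all genes, 20.3% and 21.7%. Tcf12, an E protein, rose by 0.62 (SE 0.07) on its brightest probe set, and 3 of its 5 probe sets were called higher. Tcf4, a further E protein, had a log2 difference of -0.87 (SE 0.08), and 5 of the 6 probe sets for it were called lower. Tcf3 fell with siRNA #2, at -0.26 (SE 0.08, limma adjusted p = 0.00925), and did not pass with siRNA #1, at -0.07 (limma adjusted p = 0.536), or in the mean of both, at -0.16 (limma adjusted p = 0.0542).

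**Figure D4:**
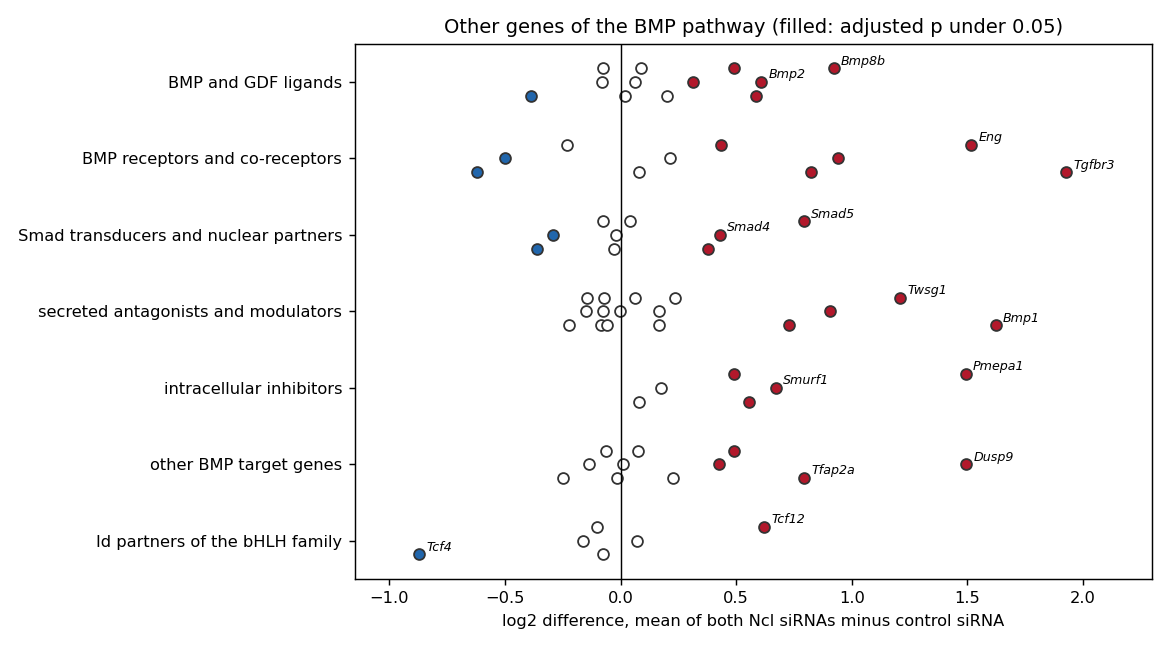
Log2 difference of the mean of both Ncl siRNAs from control siRNA for 70 other pathway genes (horizontal axis) in 7 lists (rows); each point is 1 gene, filled points passed an adjusted p of 0.05 over all genes, red higher and blue lower, with points spread vertically for legibility only. The receptors, antagonists, intracellular inhibitors and targets each hold 1 or more genes above 1, and Tcf4 has the lowest value, at -0.87.

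Genes of other cell types moved in the mean of both siRNAs against control, where 20.3% of all genes rose and 21.7% fell. Of 8 trophectoderm markers 7 rose, and their summed linear signal was 15972 to 16181 with siRNA #2, 9463 to 9876 with siRNA #1 and 1488 to 1606 with control siRNA. Elf5 was the 1 that did not pass. Of 6 neural markers 3 rose and 2 fell, with sums of 3119 to 3126 with siRNA #2, 3790 to 3867 with siRNA #1 and 1530 to 1649 with control siRNA. Neurod1, the brightest of the 6, weighs most in these sums. Its group means were 11.22 with siRNA #2, 11.54 with siRNA #1 and 9.68 with control siRNA. Sums without Neurod1 were not taken, so these sums do not stand for the 6 as a set. Nes (0.84) and Zic1 (1.46) rose as well, while Tubb3 (-0.76) and Sox1 (-0.41) fell. Of 6 markers of streak and mesoderm 3 rose and none fell, with sums of 880 to 903 with siRNA #2, 821 to 833 with siRNA #1 and 376 to 394 with control siRNA. Eomes stands in this list and in that of trophectoderm, and Hand1 in this list and among the BMP targets. The part of these cell types, of the lung transcripts, of the 18S signal and of the spiked-in controls in the changes of the members was not tested.

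The genes closest in pattern to Id1, Id3 and Bmp4 were found by the root mean square difference of centred log2 values over the 6 arrays, among 11316 genes above the mean array median. For Id1 they were Rabl3 (0.02) and Srp68 (0.02), for Id3 Arf2 (0.04) and Ddah1 (0.05), and for Bmp4 Phlpp1 (0.09) and Ndrg1 (0.09). These 6 arrays form only 3 groups, which bounds what such likeness can show.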

How the data were processed

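Per the labels' protocols, total RNA was extracted with a Qiagen kit and labelled by an Affymetrix IVT kit. The authors deposited 1 table of log2 probe set values, and the close array medians (5.73 to 5.79) are the only sign that these were scaled between arrays. How background, summarisation and normalization were handled is not given in the sources used here. The table has no detection calls. A reading below the lower quartile (25%) of its array was taken as not resolved.

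Of 45101 probe sets, 64 controls were left out, and 34945 of the others carry 1 gene symbol in the platform annotation, 932 several and 9160 none. Each of 18193 genes was represented by its brightest probe set over the 6 arrays. No symbol needed updating through the gene identifier. A model with 1 mean per group was fitted in limma 3.58.1 (R 4.3.3) with a variance trend, 3 residual and 17.5 prior degrees of freedom, and Benjamini-Hochberg adjustment over all genes (threshold 0.05). The model was also fitted to 45037 probe sets, with adjustment over all of these. The procedure was checked on simulated data with 200 changed genes. The number of arrays limits the precision.

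The members and the lists were chosen with earlier results of these data known, so no test was adjusted over a list and no list was tested as a set. The text names all members and, of each list of pathway genes, the called genes with a mean difference of at least 1 on the log2 scale, or the 2 largest where fewer passed, besides Ncl and the 2 genes nearest in pattern to Id1, Id3 and Bmp4. Acvr1, Bmpr2, Acvr2b, Bmpr1b, Smad1, Smad9, Smad7, Nog, Tcf3, Gdf3, Bmp5, Gata2, Hand1 and Kdr were named after their values were seen. So were, of the cell type markers, Scgb1a1, Bpifa1, Cyp2f2, Sftpb, Emcn, Elf5, Eomes, Neurod1, Nes, Zic1, Tubb3 and Sox1. Same-numbered arrays did not deviate together (correlations of 0.01, 0.00 and -0.02 between groups over 18193 genes), so replicate numbers were not taken as pairs. Alternatives were quantile normalization, centring on array medians, the mean of all probe sets, no probe sets ending in _x_at or _s_at, no dim genes, other variance models, only the groups compared, the replicate block, an adjusted p under 0.01, and leaving out each array.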

Additional observations from a re-analysis of the deposited data

Results flagged for a closer look

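Against the same control arrays, the effects of the 2 Ncl siRNAs on Bmp4 and on Bambi differed by the direct test between them. For Bmp4 the difference of siRNA #2 from siRNA #1 was 0.28 (SE 0.08, limma adjusted p = 0.0366), both siRNAs lying below control. For Bambi it was -0.40 (SE 0.11, limma adjusted p = 0.0302), with siRNA #2 below control and siRNA #1 not past the test. Adjusted p over the alternatives ran from 0.00831 to 0.411 for Bmp4 and from 0.0123 to 0.314 for Bambi.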

How the results depend on the processing

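The counts of members called against control kept to within 1.5 times of those reported, with these exceptions: with siRNA #2 the 2 lower members became 1 at an adjusted p under 0.01, and 1 to 2 with an array left out. Between the siRNAs the 1 member called higher became 2 under quantile normalization and 0 with centred arrays, without a variance trend, at an adjusted p under 0.01 and with the mean of all probe sets, and 0 to 1 with an array left out. The 1 called lower became 0 under quantile normalization, without a trend and at an adjusted p under 0.01, 2 with centred arrays and without dim genes, and 0 to 3 with an array left out. Of the probe sets, the 2 lower with siRNA #2 became 1 without a trend and at an adjusted p under 0.01, and 1 to 2 with an array left out; in the mean of both, 1 lower became 2 under quantile normalization. Between the siRNAs, where none was called, 2 were higher under quantile normalization, and 0 to 1 higher and 0 to 5 lower with an array left out. The replicate block left the counts of members at 7 higher and 2 lower with siRNA #2, 7 and 1 with siRNA #1 and in the mean of both, and 1 and 1 between the siRNAs, and changed no call of a member, while 10 in place of 11 probe sets were higher with siRNA #2; same-numbered arrays share only a number. Of 622 alternative values of single members, 583 kept direction and call, 25 lost and 6 gained a call, and 8 changed sign, none of them called before or after. With siRNA #1, Msx1 turned to -0.012 and Bambi to -0.056 under quantile normalization, and Bambi ran from -0.025 to 0.14 with an array left out. Between the siRNAs Bmpr1a turned to 0.030 under quantile normalization and ran from -0.12 to 0.031 with an array left out, Id2 from -0.0053 to 0.25 and Id4 from -0.39 to 0.036, the last called lower at -0.39. Over all genes, the 1543 called between the siRNAs became 142 without a trend, 633 at an adjusted p under 0.01, 790 with the mean of all probe sets, and 451 to 4300 with an array left out, the highest without replicate 2 of siRNA #1; over all probe sets the 1309 became 107, 562 and 285 to 6024. The cause was not tested.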

Other observations

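Another 6 pathway genes were called between the 2 Ncl siRNAs, 4 higher and 2 lower with siRNA #2, of 70 measured. Hand1, a transcription factor of trophoblast giant cells and heart, read 7.73 and 7.49 with siRNA #2, 6.56 and 7.03 with siRNA #1, and 6.78 and 6.65 with control siRNA, a difference between the siRNAs of 0.82 (SE 0.16, limma adjusted p = 0.00235). Bmp8b was higher with siRNA #2 by 0.69 (SE 0.13, limma adjusted p = 0.00225) and Bmp1 by 0.51 (SE 0.14, limma adjusted p = 0.0212). Kdr was higher with siRNA #2 by 0.61 (SE 0.16, limma adjusted p = 0.0252). Gdf3, a ligand of the same superfamily that is made by stem cells, read 10.96 and 11.14 with siRNA #2, 11.54 and 11.53 with siRNA #1, and 11.00 and 10.96 with control siRNA, a difference of -0.49 (SE 0.06, limma adjusted p = 3.58e-05). Twsg1 differed by -0.30 (SE 0.08, limma adjusted p = 0.0177) and stood above control with both. Over all genes 8.48% were called between the siRNAs, 2.3% higher and 6.18% lower with siRNA #2. The 6 of 70, taken in either direction, are near that 8.48%.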
